A study of Saccharomyces cerevisiae BY4741 with 22 samples.

Results

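Long extensions of 18S rRNA into the first internal transcribed spacer (ITS1) of budding yeast were examined at the single nucleotide level. Positions are counted from the mature 3′ end of 18S rRNA, which is position 0 and nucleotide 2500 of the 35S pre-rRNA reference. The long extensions are the 3′ ends at +51 to +361, the last nucleotide of ITS1, which is nucleotides 2551 to 2861 of that reference, and so cover 311 of its 6858 positions. They were chosen by position alone. The region around cleavage site A2 within them is +200 to +225, nucleotides 2700 to 2725. Of the 22 libraries of the study, the 8 made from 18S rRNA with a linker that carries a unique molecular identifier (UMI) were used. They comprise 3 libraries of Pno1-KKKF cells (replicates 6 to 8), 3 of Pno1 cells (replicates 6 to 8) and 2 of Rps14 + Dim1 cells (replicates 1 and 2).

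All cells were of strain BY4741 and were grown at 25 °C in glucose medium (YPD) for 8 doublings. In Pno1-KKKF and Pno1 cells the chromosomal Pno1 and Dim1 genes stood behind a Gal promoter, which glucose shuts off. The cells lived on plasmid copies, TEF::Pno1-KKKF or TEF::Pno1, each together with Cyc1::Dim1-E85A. The submitters describe Pno1-KKKF as a Rio1 bypass condition and Pno1 as wild type, but both strains carry Dim1-E85A. In Rps14 + Dim1 cells the Gal promoter controlled Rps14 and Dim1, and the plasmids were TEF::Rps14 and Cyc1::Dim1. These cells therefore differ from both other strains in the Dim1 allele and also in whether Pno1 or Rps14 was the other protein to be replaced, and these differences cannot be told apart. The RNA came from purified 40S subunits and was size-selected on a gel, so each value describes that selected RNA and not all pre-rRNA of the cell.

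In yeast, the 35S pre-rRNA carries 18S, 5.8S and 25S rRNA in 1 transcript. Cleavage at site A2 within ITS1 separates the small-subunit part and leaves 20S pre-rRNA, which still carries the 5′ part of ITS1. In the cytoplasm the endonuclease Nob1 cuts 20S pre-rRNA at site D and so makes the mature 3′ end. Pno1 binds the pre-rRNA beside site D. Rio1 is a kinase of late small-subunit maturation, and Dim1 dimethylates a pair of adjacent adenosines near the 18S 3′ end. Rps14 is a protein of the small subunit that lies close to that end. An end in the A2 region is thus where the 3′ end of 20S pre-rRNA is known to lie, and an end between the A2 region and site D lies within the spacer.

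The deposited values are read depths, the number of reads that cover each nucleotide of the 35S reference. Ends were read from them as the lasting drops in depth, meaning drops from which the depth does not recover before the end of ITS1, and were expressed per 1000000 ends at −50 to +50 (EPM). Total ends in that window ranged from 2720964 to 3518259 per library, so that 3 ends, the upper limit that a count of 0 allows, correspond to 0.853 to 1.10 EPM. Position 0 held 98.6% to 99.3% of these ends, and depth first rose past 50% of its highest value at −61 in every library. Confidence intervals and this limit cover counting error only.

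Long extensions were rare in every library and were more frequent in both Dim1-E85A strains than in Rps14 + Dim1. Pno1-KKKF libraries held 197, 333 and 239 long ends, Pno1 libraries 388, 265 and 300, and Rps14 + Dim1 libraries 68 and 71. As a rate this was 63.8, 122 and 82.2 EPM in Pno1-KKKF, 126, 76.4 and 95.2 in Pno1, and 23.1 and 20.2 in Rps14 + Dim1. The lowest Dim1-E85A library was thus above both Rps14 + Dim1 libraries, whereas the values of Pno1-KKKF and Pno1 interleaved. Taking both Dim1-E85A strains together, long ends averaged 94.3 ± 25.2 EPM (SD, n = 6), against 21.6 ± 2.06 in Rps14 + Dim1 (SD, n = 2). The difference of mean log2 values was 2.08 (SE 0.19), a 4.22-fold excess. Its exact permutation p was 0.0357, the smallest that 6 libraries against 2 allow, and adjusted over 6 regions it was 0.0536. In these bulk libraries a change in the share of cells with extended 18S rRNA and a change in its amount per cell cannot be told apart.

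Against Rps14 + Dim1 each strain alone gave a similar size, with log2 differences of 1.99 for Pno1-KKKF (SE 0.29) and 2.16 for Pno1 (SE 0.23). Both reached an exact permutation p of 0.1, the smallest possible for 3 libraries against 2, and both use the same Rps14 + Dim1 libraries. Long ends averaged 89.5 ± 29.9 EPM in Pno1-KKKF and 99.1 ± 24.8 in Pno1 (SD, n = 3 each). The log2 difference between these strains was −0.17 (SE 0.34, two-sided exact permutation p = 0.7), less than the spread between replicates. It turned positive without Pno1-KKKF replicate 6 (0.048) or Pno1 replicate 6 (0.017), and the replicate with the most long ends was a different one in each strain.

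**Figure D1:**
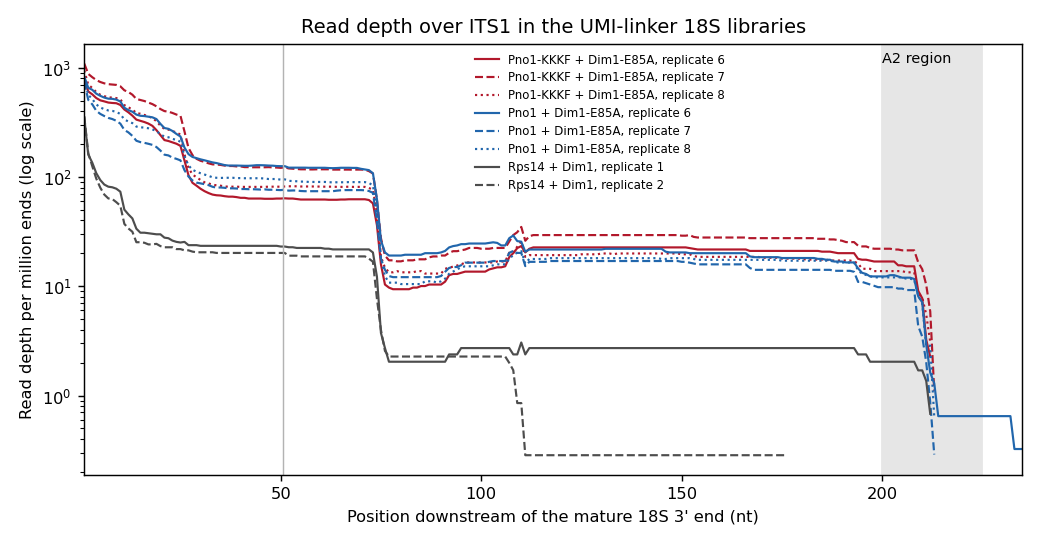
Read depth per 1000000 ends (log scale) against the distance from the mature 18S 3′ end in nucleotides, 1 line per library, with the start of the long extensions marked by a vertical line and the A2 region shaded; depths of 0 are not drawn. Depth falls steeply at +73 or +74 in every library and again at +207 to +213 in all but Rps14 + Dim1 replicate 2, and both Rps14 + Dim1 lines lie below the other 6 beyond +50.

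Most long ends lay in 1 cluster at +69 to +76, with the maximum at +73 over the 8 libraries. This cluster held 65.3% ± 3.32 of the long ends in Pno1-KKKF, 72.4% ± 0.752 in Pno1 (SD, n = 3 each) and 81.3% ± 0.571 in Rps14 + Dim1 (SD, n = 2). The 3 groups did not overlap in this share, which was lowest in Pno1-KKKF and highest in Rps14 + Dim1. Position +73 had 65, 124 and 87 ends in Pno1-KKKF, 140, 111 and 111 in Pno1, and 24 and 32 in Rps14 + Dim1. Its neighbour +74 had 40, 74 and 60 ends in Pno1-KKKF, 104, 64 and 87 in Pno1, and 25 and 13 in Rps14 + Dim1. The steepest single fall of depth beyond +50 was at +73 in 7 libraries and at +74 in Rps14 + Dim1 replicate 1. Position +72 was a lesser end, with 13, 15 and 9 ends in Pno1-KKKF, 23, 10 and 14 in Pno1, and 4 and 4 in Rps14 + Dim1. Because the depth recovers farther out, lasting drops leave out part of the fall at +74 and all of that at +75 and +76 in the Dim1-E85A libraries. The whole fall of depth at +74 was 63, 94 and 81 reads in Pno1-KKKF, 113, 75 and 96 in Pno1, and 25 and 13 in Rps14 + Dim1. At +75 it was 17, 23 and 11 reads in Pno1-KKKF, 18, 13 and 18 in Pno1, and 3 and 5 in Rps14 + Dim1, whereas lasting drops gave 0 in all 6 Dim1-E85A libraries and 2 and 5 in Rps14 + Dim1. Every Dim1-E85A library thus fell by more at +74 and +75 than both Rps14 + Dim1 libraries. With every drop counted, an alternative chosen after seeing the data, the cluster held 67.8% ± 2.07 of the long ends in Pno1-KKKF and 72.3% ± 0.963 in Pno1 (SD, n = 3 each), against 80.6% ± 1.58 in Rps14 + Dim1 (SD, n = 2), in the same order.

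The distance between the rise of depth at −61 and +73 is 135 nt. Isolated stretches covered by a single read give the length of the reads in those stretches only. There were 21 such stretches, the longest 104 nt and the median 101 nt, and 16 had 100 to 104 nt. A read of 104 nt that begins at −61 ends before +51. At +51 depth was 197, 333 and 238 reads in Pno1-KKKF, 388, 265 and 300 in Pno1, and 68 and 71 in Rps14 + Dim1. At +73 it was 177, 293 and 222 in Pno1-KKKF, 334, 248 and 264 in Pno1, and 60 and 59 in Rps14 + Dim1. Depth at +51 to +73 is thus not made of single reads of at most 104 nt that begin at −61. Which reads cover these positions was not tested. Neither read length nor read pairing is stated in the sources used here. Whether the fall at +73 and +74 marks the end of RNA molecules or the reach of the reads was therefore not tested.

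Beyond the cluster the depth had a trough at +77 to +105 and then increased again. The lowest depth in the trough was 29, 46 and 38 reads in Pno1-KKKF, 59, 42 and 33 in Pno1, and 6 and 8 in Rps14 + Dim1. At +111 to +191 the highest depth was 70, 80 and 58 reads in Pno1-KKKF, 68, 59 and 57 in Pno1, and 8 and 1 in Rps14 + Dim1. Depth thus recovered in all 6 Dim1-E85A libraries and in Rps14 + Dim1 replicate 1, but not in its replicate 2. The recovery at +104 to +113 summed to 34, 43 and 29 reads in Pno1-KKKF, 20, 19 and 22 in Pno1, and 3 and 0 in Rps14 + Dim1, and the ends at +207 to +213 numbered 47, 58 and 39, 35, 32 and 37, and 6 and 0 in the same libraries. A read of 104 nt that ends at +207 reaches back to +104 and not to 18S rRNA. The window +104 to +113 was set from the limits of +207 to +213 and the stretch lengths of 104 and 101 nt. At +208 depth was 47, 58 and 39 reads in Pno1-KKKF, 36, 32 and 36 in Pno1, and 6 and 0 in Rps14 + Dim1. It was above the lowest depth of the trough in all Pno1-KKKF libraries and in Pno1 replicate 8. There, part of the depth thus came from read segments that begin inside ITS1, by 1 read in Pno1-KKKF replicate 8. In the other libraries the depths do not show this. They also do not show whether such segments were joined to 18S rRNA, which was not tested. The forward primer of the protocol is specific for 18S rRNA.

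Ends in the A2 region were found in 7 of the 8 libraries. They numbered 52, 60 and 40 in Pno1-KKKF, 37, 34 and 38 in Pno1, and 6 and 0 in Rps14 + Dim1. The rates were 16.8, 22.1 and 13.8 EPM in Pno1-KKKF, 11.98, 9.81 and 12.1 in Pno1, and 2.04 and 0 in Rps14 + Dim1. For Rps14 + Dim1 replicate 2 the exact 95% interval reaches up to 1.05 EPM, and for replicate 1 it spans 0.748 to 4.44. All 3 Pno1-KKKF libraries were above all 3 Pno1 libraries, and these above both Rps14 + Dim1 libraries.

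A2 ends averaged 17.6 ± 4.19 EPM in Pno1-KKKF and 11.3 ± 1.28 in Pno1 (SD, n = 3 each), and the geometric means differed 1.53-fold (log2 difference 0.61, SE 0.22). The exact permutation p of 0.1 is the smallest that 3 libraries against 3 can give, and adjusted over the 6 regions it was 0.6. The difference therefore does not pass a test in this design, although no library overlapped. With single libraries left out, the log2 difference ranged between 0.44 and 0.77. Summed over libraries, the ratio of rates was 1.55, with a 95% counting interval of 1.21 to 2.01 that leaves out the spread between replicates.

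Both Dim1-E85A strains together had 261 A2 ends, against 6 in Rps14 + Dim1, a ratio of rates of 15.3 with a 95% counting interval of 6.92 to 42.0. The exact permutation p was 0.0357, again the smallest possible, and 0.0536 after adjustment over 6 regions. On the log2 scale with 0.5 ends added to each count the difference was 4.65 (SE 1.99). Its size depends on the added count and on 1 library, since it was 3.55 with 2 ends added, 5.84 with 0.1 ends added, 2.67 without Rps14 + Dim1 replicate 2 and 6.63 without its replicate 1. The direction was the same in each case.

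**Figure D2:**
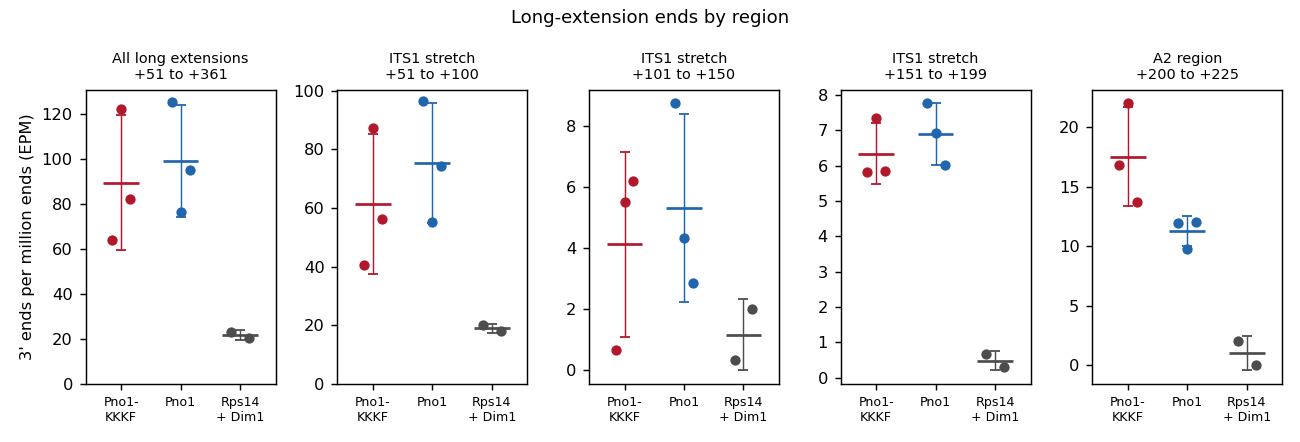
3′ ends per 1000000 ends (EPM) in all long extensions, in 3 stretches of ITS1 and in the A2 region (1 panel each, each with its own axis), for Pno1-KKKF, Pno1 and Rps14 + Dim1. Points are libraries, horizontal lines means and vertical bars 1 SD (n = 3, 3 and 2); in the A2 panel Pno1-KKKF lies at 13.8 to 22.1, Pno1 at 9.81 to 12.1 and Rps14 + Dim1 at 0 to 2.04.

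Within the A2 region, ends were confined to a few nucleotides. Between 90.4% and 100% of them lay at +207 to +213 in the 7 libraries that had any. The position with the most A2 ends over all libraries was +208, with 19, 13 and 14 ends in Pno1-KKKF, 11, 17 and 10 in Pno1, and 1 and 0 in Rps14 + Dim1. Position +210 followed with 14, 11 and 7 ends in Pno1-KKKF, 13, 5 and 13 in Pno1, and 1 and 0 in Rps14 + Dim1. The most frequent A2 end was at +208 in all Pno1-KKKF libraries and in Pno1 replicate 7, at +210 in the other 2 Pno1 libraries, and at +211 in Rps14 + Dim1 replicate 1, there with 2 ends. The lower median of the A2 ends was at +208 to +210 in the 6 Dim1-E85A libraries. Within this cluster, position +212 had 7, 13 and 9 ends in Pno1-KKKF, 1, 2 and 7 in Pno1, and 2 and 0 in Rps14 + Dim1. Its neighbour +211 had 3, 12 and 7 ends in Pno1-KKKF, 4, 4 and 0 in Pno1, and 2 and 0 in Rps14 + Dim1. Both were picked out after these values were seen and did not reach the count needed for the test by position.

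**Figure D3:**
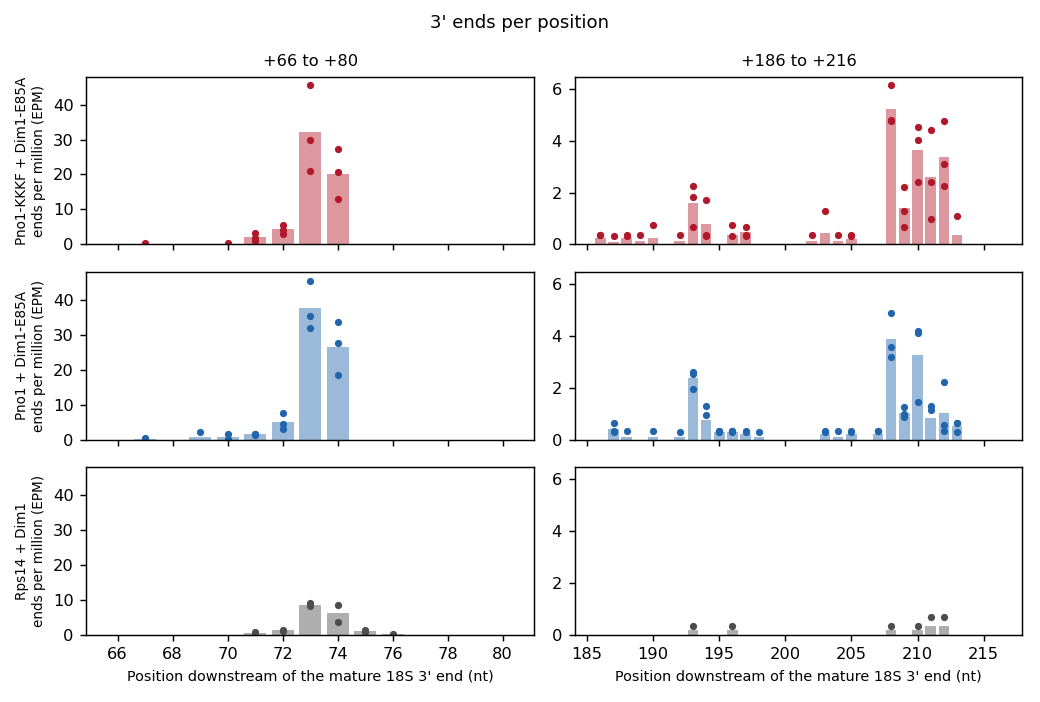
3′ ends per 1000000 ends (EPM) at each position of the cluster around +73 (left) and of the stretch that holds the A2 cluster (right), for Pno1-KKKF, Pno1 and Rps14 + Dim1 from top to bottom. Bars are means over libraries and points single libraries with at least 1 end (n = 3, 3 and 2); positions +73 and +74 lead on the left and +208 and +210 lead on the right in both Dim1-E85A strains.

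The A2 region made up different shares of the long ends. The share was 26.4%, 18.0% and 16.7% in Pno1-KKKF, 9.54%, 12.8% and 12.7% in Pno1, and 8.82% and 0% in Rps14 + Dim1. Every Pno1-KKKF library had a higher share than every Pno1 library, and both Rps14 + Dim1 libraries were below all others. The log2 difference in odds was 0.93 between Pno1-KKKF and Pno1 (SE 0.30), with the smallest exact permutation p of 0.1. With every drop in depth counted, this difference was 0.80 (exact permutation p = 0.1), and the mean shares were 16.7% in Pno1-KKKF and 10.2% in Pno1. Between both Dim1-E85A strains and Rps14 + Dim1 it was 2.76 (SE 1.96, exact permutation p = 0.0357), but it was 0.82 without Rps14 + Dim1 replicate 2 (exact permutation p = 0.286) and 4.71 without its replicate 1 (p = 0.143 in the same test). It also lost the call when every drop in depth was counted as ends, lasting or not (2.54, exact permutation p = 0.0714).

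Between the first cluster and the A2 region ends were sparse. At +101 to +150 the libraries held 2, 15 and 18 ends in Pno1-KKKF, 27, 15 and 9 in Pno1, and 1 and 7 in Rps14 + Dim1. Most of them were at +106 to +110, and position +110 alone had 2, 15 and 17 ends in Pno1-KKKF, 11, 11 and 9 in Pno1, and 1 and 2 in Rps14 + Dim1. By lasting drops the groups overlapped here, and Pno1-KKKF replicate 6 was lower than Rps14 + Dim1 replicate 2. For both Dim1-E85A strains against Rps14 + Dim1 the log2 difference was 1.90 (SE 1.15, exact permutation p = 0.0714), and with net changes of depth in place of lasting drops it turned to −1.09. With every drop counted it was 2.07 (exact permutation p = 0.0357, adjusted p = 0.0429). Mean depth, which also counts reads that end farther out, differed by 3.84 (SE 0.97, exact permutation p = 0.0357, adjusted p = 0.0429). In these last measures every Dim1-E85A library lay above both Rps14 + Dim1 libraries. This stretch is where the depth recovers, so that ends there are hidden from each count of ends to an extent that was not tested.

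The stretch at +151 to +199 held 18, 20 and 17 ends in Pno1-KKKF, 24, 24 and 19 in Pno1, and 2 and 1 in Rps14 + Dim1. Those of both Dim1-E85A strains were close together, and both Rps14 + Dim1 libraries were below the limit of 3 ends. The ends were spread, with the most at +193, where Pno1-KKKF had 7, 5 and 2, Pno1 6, 9 and 8, and Rps14 + Dim1 1 and 0. The log2 difference between Pno1-KKKF and Pno1 was −0.12 (SE 0.15), within the spread of replicates (exact permutation p = 0.5). Summed, the ratio of rates between both Dim1-E85A strains and Rps14 + Dim1 was 14.3, with a 95% counting interval of 4.77 to 70.1 (exact permutation p = 0.0357 over libraries, 0.0536 adjusted). A recovery of depth preceded the cluster at +192 to +198 too. The recovery at +89 to +98 was 10, 10 and 10 reads in Pno1-KKKF, 14, 15 and 14 in Pno1, and 2 and 0 in Rps14 + Dim1. The ends at +192 to +198 numbered 10, 9 and 10 in Pno1-KKKF, 12, 14 and 14 in Pno1, and 2 and 0 in Rps14 + Dim1, nearly the same counts. The window +89 to +98 was set from the limits of this cluster and the same stretch lengths, so that the match was sought. At +104 to +113, set likewise, the recovery was less than the ends at +207 to +213 in every library with such ends. Whether the same reads make the recovery and the ends was not tested.

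Beyond the A2 region, at +226 to +361, 7 of the 8 libraries had no end, and Pno1 replicate 6 had 2, the last of them at +303. No group was above the limit of 3 ends per library there, so no fold is given. The last end was at +212 or +213 in the other 5 Dim1-E85A libraries, at +212 in Rps14 + Dim1 replicate 1 and at +176 in its replicate 2.

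Mean read depth does not depend on how ends are read off, and it gave the same order over the A2 region. It counts the same reads as the ends there and is no separate support. Mean depth was 6.40, 9.34 and 5.69 reads per 1000000 ends in Pno1-KKKF, 5.33, 3.73 and 4.95 in Pno1, and 0.915 and 0 in Rps14 + Dim1. The log2 difference between Pno1-KKKF and Pno1 was 0.58 (SE 0.26, exact permutation p = 0.1, adjusted p = 0.6). At +151 to +199 the depth was 20.7, 26.9 and 17.7 in Pno1-KKKF, 18.0, 14.3 and 16.7 in Pno1, and 2.66 and 0.151 in Rps14 + Dim1, where Pno1-KKKF and Pno1 overlapped. Over all long positions it averaged 15.6 ± 3.92 in Pno1-KKKF and 14.6 ± 2.96 in Pno1 (SD, n = 3 each), against 2.26 ± 0.754 in Rps14 + Dim1 (SD, n = 2). For both Dim1-E85A strains against Rps14 + Dim1 the log2 difference over all long positions was 2.67 (SE 0.35), with an exact permutation p of 0.0357 and an adjusted p of 0.0429.

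Long extensions were then set against the short ones at +11 to +50. Pno1-KKKF libraries had 0.182, 0.245 and 0.221 long ends for each short one, Pno1 libraries 0.412, 0.396 and 0.396, and Rps14 + Dim1 libraries 0.850 and 1.18. The 3 groups did not overlap, and the ratio was lowest in Pno1-KKKF and highest in Rps14 + Dim1. Between Pno1-KKKF and Pno1 the log2 difference was −0.90 (SE 0.13), with the smallest exact permutation p of 0.1. With +1 to +50 as the short extensions it was −0.49 (exact permutation p = 0.2) and the groups overlapped. Short ends at +11 to +50 averaged 408 ± 80.3 EPM in Pno1-KKKF and 246 ± 56.1 in Pno1 (SD, n = 3 each), against 22.1 ± 7.16 in Rps14 + Dim1 (SD, n = 2), so the strains differed more in short ends than in long ones. For both Dim1-E85A strains against Rps14 + Dim1 the log2 difference of the ratio was −1.77 (SE 0.32, exact permutation p = 0.0357). Its direction rests on where short extensions begin. With +1 to +50 as the short extensions the difference was 0.88 (exact permutation p = 0.0357), since the ends at +1 to +10 averaged 445 ± 39.6 EPM in both Dim1-E85A strains (SD, n = 6) and 311 ± 14.8 in Rps14 + Dim1 (SD, n = 2).

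**Figure D4:**
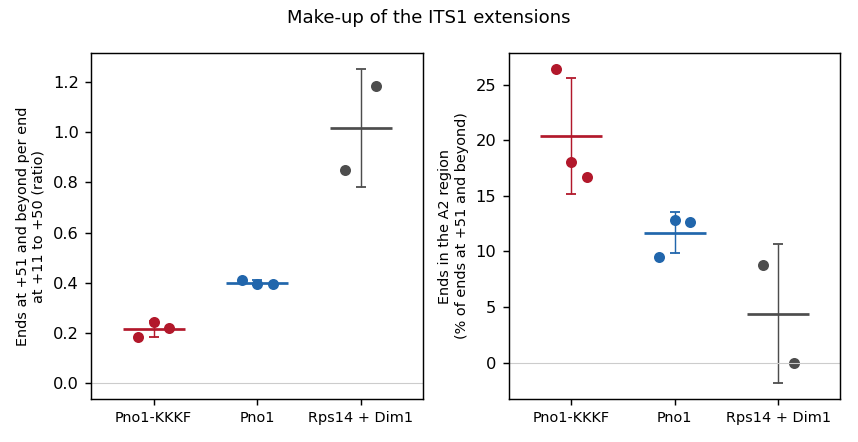
Long ends (+51 and beyond) per end at +11 to +50 (left) and the percentage of long ends that lie in the A2 region (right) in Pno1-KKKF, Pno1 and Rps14 + Dim1. Points are libraries, horizontal lines means and vertical bars 1 SD (n = 3, 3 and 2); on the left the groups run at 0.182 to 0.245, 0.396 to 0.412 and 0.850 to 1.18, and on the right at 16.7 to 26.4%, 9.54 to 12.8% and 0 to 8.82%.

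Ends were also tested position by position with edgeR's quasi-likelihood test over all positions at −50 to +361 that had at least 10 ends in at least 2 libraries. Of the 311 long positions, 248 had no end in any library and 63 had 1 or more, 1861 ends in all. Only 6 long positions passed the filter, +72, +73, +74, +110, +208 and +210, among 55 positions tested. Position +210, just inside it, had 13 ends in its second-highest library, whereas +51 and +212, just outside, had 9. Of the 6, only +73 and +74 had 10 or more ends in Rps14 + Dim1 libraries, so that the others passed through the Dim1-E85A libraries alone, and their count supports no statement on long positions as a whole.

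Between Pno1-KKKF and Pno1, edgeR called 0 of these 6 positions at an adjusted p under 0.05, against 7.27% of all positions tested, and none of the 6 had an unadjusted p under 0.05. DESeq2 called 0 of them as well. The 3 with the smallest p were +208, +74 and +73. Position +208 had a log2 difference of 0.43 (SE 0.33, edgeR adjusted p = 0.584), +74 had −0.39 (SE 0.38, adjusted p = 0.713; −0.10 with every drop counted) and +73 had −0.22 (SE 0.31, adjusted p = 0.720). The 2 A2 positions had positive values, as had +110 outside the A2 region (0.30, against 0.18 at +210). The 3 positions at +72 to +74 had negative ones, but none of the 6 differed beyond the spread between replicates. The sign of +210 turned to −0.13 with TMM factors and to −0.019 with DESeq2's default size factors.

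Against Rps14 + Dim1, edgeR called +73 and +74 higher in both Pno1-KKKF and Pno1, where 67.3% of all positions tested were higher and 1.82% lower in either comparison. Position +73 rose 3.71-fold in Pno1-KKKF (log2 difference 1.89, SE 0.39, edgeR adjusted p = 0.00218) and 4.33-fold in Pno1 (2.11, SE 0.39, adjusted p = 0.00133). Position +74 rose 3.35-fold in Pno1-KKKF (adjusted p = 0.0107 in edgeR) and 4.40-fold in Pno1 (adjusted p = 0.00379). These values of +74 rest on lasting drops, which leave out part of its fall in the Dim1-E85A libraries alone, and with every drop counted they were 4.57-fold and 4.90-fold. With TMM factors, which moved position 0 itself by −0.99 in Pno1-KKKF and −0.68 in Pno1 on the log2 scale, the calls in Pno1-KKKF were lost at +73 (0.90, edgeR adjusted p = 0.0740) and +74 (0.67, adjusted p = 0.304). The call of +74 in Pno1-KKKF was also lost with DESeq2 and its default size factors (0.71, adjusted p = 0.232) and without Rps14 + Dim1 replicate 2 (1.25, edgeR adjusted p = 0.0789).

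The other 4 tested positions, +72, +110, +208 and +210, entered the test only through the Dim1-E85A libraries, where they are frequent, so their tests against Rps14 + Dim1 are not given as results. Position +72 had 37 ends over the Pno1-KKKF libraries and 47 over the Pno1 libraries, against 8 in Rps14 + Dim1. For the positions farther out, Rps14 + Dim1 held 1 to 3 ends in all. At +208, 84 ends in both Dim1-E85A strains stood against 1 in Rps14 + Dim1. At +210, 63 ends stood against 1, and at +110, 65 ends against 3. Because these positions were picked for being frequent in the Dim1-E85A libraries, no ratio or interval is given for them.

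The 10 libraries of 18S rRNA made with the universal linker were examined over the same positions. None of them had any depth beyond +50, and the last covered position of ITS1 was +30 to +36. At their depth a count of 0 allows up to 0.686 to 1.15 reads per 1000000 reads of the highest depth. This limit covers counting error only and bounds long extensions only if the reads could reach beyond +50, which was not tested. They differ from the UMI libraries in linker and purification, 6 of them came from cells grown at 30 °C and not 25 °C, and their longest stretch covered by a single read was 66 nt, against 104 nt in UMI libraries. These differences cannot be told apart, and none of these 10 libraries came from Rps14 + Dim1 cells.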

How the data were processed

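The authors deposited 1 table of read counts for each library, the read depth at each nucleotide of the 35S reference, per the file headers. Among the tools listed in the submitters' processing notes are the aligner Bowtie2 2.2.9, UMI-tools 1.1.2 and bedtools 2.17.0, with no settings, so how duplicates were removed is not known. Groups follow the sample labels, which call the replicates biological. Ends were taken as lasting drops in depth (Python 3.11.15, numpy 2.4.6). Regions were compared as log2 of ends per 1000000 ends, with 0.5 ends added, by two-sided exact permutation tests (scipy 1.17.1), adjusted by Benjamini-Hochberg over 6 regions. The same test was applied to mean depth, long over short ends and the A2 odds. Positions were tested in 1 fit over the 8 libraries with edgeR 4.0.16 (R 4.3.3), with total ends as library size and p-values adjusted over all 55 positions. DESeq2 1.42.0, with a mean dispersion fit, was an alternative. Scripts were tested on simulated data. Named positions are the 5 most frequent long ends of each group, the most frequent A2 end, up to 10 called positions per comparison and direction or else the 3 of smallest p, and the steepest fall of depth. Positions +211, +212 and +193 and the cluster limits were picked out after their values were seen. Positions, regions and tests were chosen with earlier results of these data known. The reference names no genome build, and landmarks come from the RefSeq table of assembly R64. The 25S libraries were not used here.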

Additional observations from a re-analysis of the deposited data

How the results depend on the processing

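The small number of libraries (3 of Pno1-KKKF, 3 of Pno1 and 2 of Rps14 + Dim1) sets the smallest p of the exact tests. The excess of long ends in both Dim1-E85A strains over Rps14 + Dim1 kept its direction under each alternative run, between 1.98 and 2.18 on the log2 scale without single libraries. It passed an adjusted p of 0.05 with every positive drop counted (2.26, and 4.65 for the A2 region, exact permutation adjusted p = 0.0429), and was 3.20 at +77 and beyond, a limit chosen after seeing the data (unadjusted exact permutation p = 0.0357). Without single libraries, which leaves fewer arrangements, the log2 difference in depth ranged between 2.34 and 3.00 over all long positions and between 2.43 and 5.36 in the A2 region, that of long over short ends between −2.01 and −1.54, and that of the A2 odds between 0.82 and 4.71. With every positive drop the A2 odds gave 2.54. With +1 to +50 as short extensions, long over short reversed to 0.63 for Pno1-KKKF, 1.12 for Pno1 and 0.88 for both against Rps14 + Dim1. At +101 to +150, net change of depth reversed the same 3 comparisons to −1.80, −0.37 and −1.09.

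For Pno1-KKKF against Pno1 no test of the long extensions passed. The sign of all long ends turned at +77 and beyond (0.24). Their log2 difference ranged between −0.42 and 0.048 without single libraries, and that of depth between −0.11 and 0.24. Without single libraries the ends at +101 to +150 ranged between −1.20 and 0.29 and depth at +51 to +100 between −0.37 and 0.074. Positions +72 (−0.48 to 0.22), +73 (−0.56 to 0.0084), +110 (−0.093 to 0.82) and +210 (−0.18 to 0.42) changed sign in this way too. With TMM factors +110 had −0.065 and +210 −0.13, and with DESeq2's default size factors +210 had −0.019. The cause was not tested.

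Between Pno1-KKKF and Pno1, edgeR called 4 of all positions, 2 without a filter, 0 in windows of 10 nt and 0 to 3 without single libraries, the fewest without Pno1 replicate 8. DESeq2 with total ends called 0, with 4 at an unadjusted p under 0.05. Of the windows of 10 nt, 12 were tested, 6 of them long. Against Rps14 + Dim1, 7 of the 12 were called for Pno1, 8 for Pno1-KKKF and 8 for both. Of these, 3, 4 and 4 were among the 6 long ones. Long positions called higher in Pno1-KKKF than in Rps14 + Dim1 numbered 3 of 6 with TMM factors, where 24 of all 55 positions were called higher. They numbered 3 of 6 with DESeq2's default size factors (25 of all 55) and 10 of 63 without a filter (41 of all 126). Without single libraries they numbered 3 to 6, the fewest without Rps14 + Dim1 replicate 2, where 28 of all 54 were called higher. Of the 6 long positions tested after the filter, 4 entered through the Dim1-E85A libraries alone. These counts thus show only how calls depend on the settings and support no statement on long positions. Without a filter +75 was called lower against Rps14 + Dim1, where lasting drops are 0 in the Dim1-E85A libraries because depth recovers farther out. The shared replicate numbers of Pno1-KKKF and Pno1 were not taken as pairs in the main tests. Correlations were −0.08, −0.32 and 0.09 between same-numbered deviations and −0.27 to 0.35 between differently numbered ones. With 3 libraries per strain these cannot decide whether the libraries were made in pairs. With the replicate block edgeR called 3 positions, none of them long, and the A2 difference of 0.61 had an exact permutation p of 0.25, the smallest that 3 pairs allow.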
